A study of Homo sapiens with 9 samples.

Results

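*FOXM1* and genes of mitotic entry, the spindle, cytokinesis and chromosome condensation were followed in bulk RNA-seq of SET2 cells. The members were chosen by symbol from a list of 47 genes, of which 46 had a row among the 60662 genes of the table, and *KIF23* was not analysed here. SET2 is a *JAK2* mutant megakaryoblastic line that the labels place as AML after a myeloproliferative neoplasm (MPN). The groups were untreated wild-type cells (WT, n = 3 libraries) and 2 untreated *DYRK1A* knockout (KO) clones, with 3 libraries of 11H1 and 3 of 14B5. Cas9 ribonucleoprotein was delivered by nucleofection, cells were sorted singly, and each clone carries out-of-frame indels, whereas WT cells had not gone through this cloning. The effect of *DYRK1A* loss and the effect of cloning therefore cannot be told apart, the libraries of a clone share its founder cell, and nothing in the labels says that libraries came from separate cultures, so that adjusted *P* values measure the spread between these libraries only.

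Cells that divide express most of these genes in a wave that peaks in G2 and mitosis. In resting and early cycling cells the DREAM complex, which DYRK1A helps to assemble by phosphorylating LIN52, binds CHR elements in their promoters and keeps them low, and later the MuvB core of the complex joins B-MYB and FOXM1 at the same elements and the genes are switched on. CDK1 with cyclin A or B then drives entry into mitosis, kinesins and microtubule binding proteins build the spindle, condensin compacts the chromosomes, and the anaphase promoting complex (APC/C) with separase starts anaphase before the cytokinesis proteins divide the cell.

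Promoter sequences were taken from RefSeq (GRCh38.p14) to show the element by which these genes are usually recognised. The table held 51 windows of 300 bases, from 250 before to 50 after a start site, for 41 of the 46 genes, and *FOXM1*, *AURKA*, *TPX2*, *UBE2C* and *RACGAP1* had no entry. A CHR element, searched as TTTGAA or TTTAAA on both strands, was found in 38 of the 51 windows (74.5%, 95% Wilson interval 61.1 to 84.5%) and in 24.0% of all 35116 windows. Some genes have several windows, a few of which overlap, so the interval treats as independent what is not. Counted by gene, 35 of 41 (85.4%) held a CHR, against 27.9% of all 27305 genes. The CCAAT box (CCAAT, both strands) was in 66.7% of the windows of these genes and 34.6% of all windows, and both elements together were in 54.9% and 9.3%. An E2F site, searched on both strands as TTTCCCGC, TTTCGCGC, TTTGCCGC or TTTGGCGC, was in 9.8% and 3.3%. Among 48 windows of a list of other mitotic genes, described further on, 68.8% held a CHR, 60.4% a CCAAT box, 47.9% both and 4.2% an E2F site. A match of these letters is a description of the sequence and not evidence that a protein is bound. When only the 250 bases upstream of the start were searched, the CHR share was 56.9%, against 21.9% of all windows. Shown are 30 bases around the CHR match on the gene strand for the 7 genes with full values below that had such a match within 100 bases upstream of a start site, with the CHR in capitals.
CCNB1, chr5:69167108-69167137, plus strand: agcagtgcggggTTTAAAtctgaggctagg
CCNB2, chr15:59105105-59105134, plus strand: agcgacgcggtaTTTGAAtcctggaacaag
CDK1, chr10:60778453-60778482, plus strand: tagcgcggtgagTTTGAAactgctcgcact
ESPL1, chr12:53268256-53268285, plus strand: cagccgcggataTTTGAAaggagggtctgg
ANLN, chr7:36389830-36389859, plus strand: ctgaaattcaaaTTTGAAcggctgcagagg
NCAPG, chr4:17810932-17810961, plus strand: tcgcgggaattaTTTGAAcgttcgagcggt
MKI67, chr10:128126435-128126464, minus strand: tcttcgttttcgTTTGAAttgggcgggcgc

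**Figure D1:**
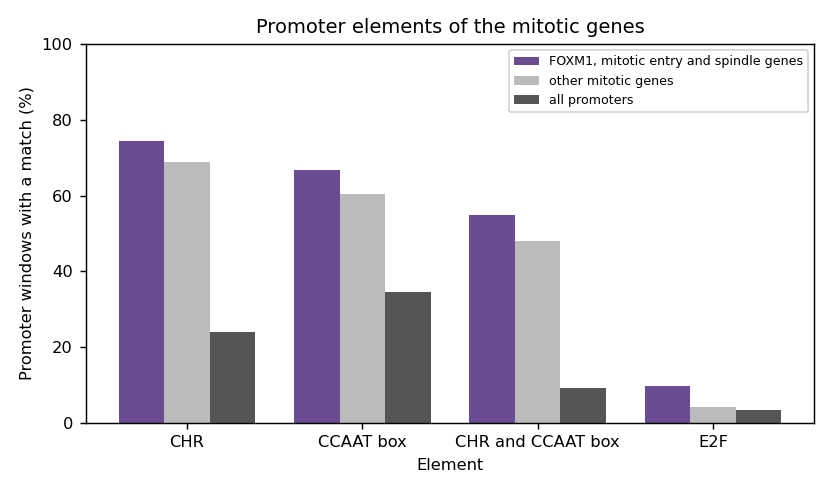
Share of RefSeq promoter windows (y axis, percent) that held each element (x axis) for the 51 windows of the *FOXM1*, mitotic entry and spindle genes, the 48 windows of other mitotic genes and all 35116 windows. The CHR bar stands at 74.5% for the genes followed here and at 24.0% for all windows.

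Expected counts summed to between 32347779 and 60272245 per library. The 46 genes took 0.529 to 0.588% of the counts in WT, 0.691 to 0.722% in 11H1 and 0.689 to 0.72% in 14B5. Levels are CPM, expected counts scaled to TMM-adjusted library sizes. *DYRK1A* RNA was at 196 to 218 CPM in WT, 188 to 192 in 11H1 and 174 to 191 in 14B5, and since indels need not remove the RNA this level does not check the knockout. All 5 blood cell markers (*PTPRC*, *SPN*, *LYL1*, *TAL1* and *RUNX1*) were present at 1 CPM or more in every library, and all 5 lymphoid and all 5 stromal or epithelial markers stayed under 5 CPM. The summed level of 5 megakaryocyte markers was 1397 to 1401 CPM in WT, 985 to 1043 in 11H1 and 960 to 1001 in 14B5. *PF4*, a chemokine of platelet granules, was at 0.461 to 0.559 CPM in WT and 0 in every KO library, where a count of 0 allows up to 3 counts (0.0913 CPM in the smallest library, counting error only). The summed level of 5 erythroid markers was 584 to 637, 637 to 684 and 647 to 677 CPM. Mitochondrially encoded genes took 3.54 to 6.03% of counts in WT, 7.23 to 7.39% in 11H1 and 3.3 to 3.92% in 14B5, and without them the counts of the 46 genes called in each comparison below were the same. The part of the megakaryocyte and erythroid changes in the results was not tested, and in bulk RNA a larger share of cells in G2 and mitosis cannot be told apart from more RNA per cell.

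Most of the 46 genes were higher in both clones, by modest amounts. In 11H1 versus WT 40 of the 46 (87%) were called higher and 1 lower at an adjusted *P* below 0.05 (edgeR quasi-likelihood test), where 31.8% of all 16675 genes tested were called higher and 32.8% lower. In 14B5 versus WT 40 (87%) were called higher and 0 lower, where 24.9% of 16537 genes were called higher and 28.7% lower, and 0 were lower by DESeq2 or at an unadjusted *P* below 0.05. The median log2FC of the 46 genes was 0.33 in 11H1 (range −0.24 to 0.86) and 0.35 in 14B5 (range −0.01 to 0.74), beside a median of −0.01 over all genes in each comparison. The clones share the WT libraries, so the calls are not independent: 35 genes were called higher in both, 5 in 11H1 alone, 5 in 14B5 alone, and *UBE2S* in neither.

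**Figure D2:**
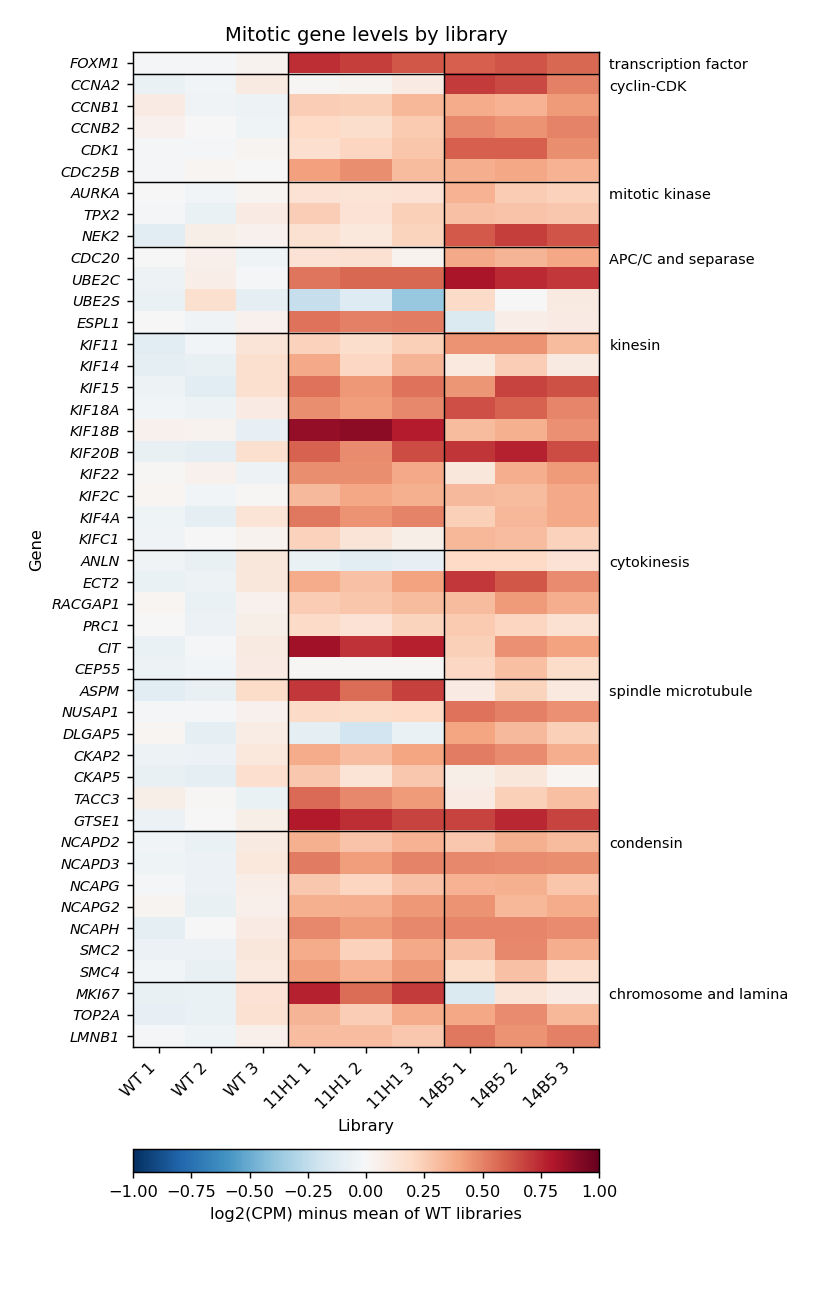
Level of each of the 46 genes (rows, grouped by role) in each of the 9 libraries (columns), as log2(CPM) minus the mean of the 3 WT libraries, from blue (lower) to red (higher). Red fills most of both KO blocks, with *UBE2S* and *DLGAP5* blue in 11H1 and *MKI67* and *ESPL1* near white in 14B5.

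*FOXM1* encodes the forkhead transcription factor that activates the G2 and mitotic wave (chr12:2857681-2877155, minus strand, GRCh38). Its level was 102, 102 and 106 CPM in the WT libraries, 172, 167 and 159 in 11H1, and 156, 160 and 154 in 14B5. All KO libraries lay well above all WT libraries, and the clones overlapped each other. The log2FC was 0.70 ± 0.0482 (SE) in 11H1, a 1.62-fold level (adjusted *P* = 1.67e-07), and 0.59 ± 0.0433 in 14B5, a 1.5-fold level (adjusted *P* = 2.09e-06). Between the clones it differed by 0.09 ± 0.045, which did not pass the test (adjusted *P* = 0.0921), although it did (0.11, adjusted *P* = 0.0374) when genes needed at least 10 counts in every library.

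Among the cyclin and CDK genes, grouped here with the phosphatase gene *CDC25B*, 4 of 5 were called higher in 11H1 and 5 of 5 in 14B5. Of all genes tested, 31.8% in 11H1 and 24.9% in 14B5 were called higher. *CDK1*, the kinase that starts mitosis (chr10:60778331-60794852), was at 146, 145 and 150 CPM in WT, 165, 171 and 178 in 11H1, and 222, 222 and 203 in 14B5. The 3 groups did not overlap, and the log2FC was 0.23 ± 0.0448 in 11H1 (adjusted *P* = 0.000785) and 0.54 ± 0.0498 in 14B5 (adjusted *P* = 1.07e-05). Its partner cyclin B1, *CCNB1* (chr5:69167010-69178245), was at 89.3, 82.1 and 81.4 CPM in WT, 100, 99.1 and 106 in 11H1, and 109, 107 and 113 in 14B5, again with no overlap. It rose by 0.28 ± 0.0518 (adjusted *P* = 0.000555) and 0.37 ± 0.0521 (adjusted *P* = 0.000219). *CCNB2*, the second B-type cyclin of mitosis (chr15:59105078-59125045), was at 110, 107 and 104 CPM in WT, 123, 121 and 128 in 11H1, and 149, 146 and 151 in 14B5. The libraries were ordered WT, 11H1 and 14B5 without overlap, with a log2FC of 0.22 ± 0.0468 (adjusted *P* = 0.00145) and 0.46 ± 0.0447 (adjusted *P* = 1.67e-05).

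*CDC25B*, the phosphatase that first activates CDK1 (chr20:3786772-3806121), was at 65.9, 67.7 and 66.8 CPM in WT, 88.9, 92.2 and 83.4 in 11H1, and 86.1, 87.5 and 85.1 in 14B5. Both clones were above WT and overlapped each other, at a log2FC of 0.41 ± 0.049 (adjusted *P* = 1.73e-05) and 0.35 ± 0.0425 (adjusted *P* = 7.13e-05). *CCNA2*, the cyclin of S phase and G2 (chr4:121816444-121823933), behaved otherwise. Its level was 150, 154 and 167 CPM in WT, 158, 160 and 166 in 11H1, and 255, 248 and 223 in 14B5. The 11H1 libraries fell within the WT range (log2FC 0.05 ± 0.0495, adjusted *P* = 0.439), while all 14B5 libraries were higher (0.61 ± 0.0625, adjusted *P* = 2.31e-05). Set against each other, the clones differed by −0.58 ± 0.0527 (11H1 versus 14B5, adjusted *P* = 2.08e-06), the largest fall among the 46 genes in that comparison.

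**Figure D3:**
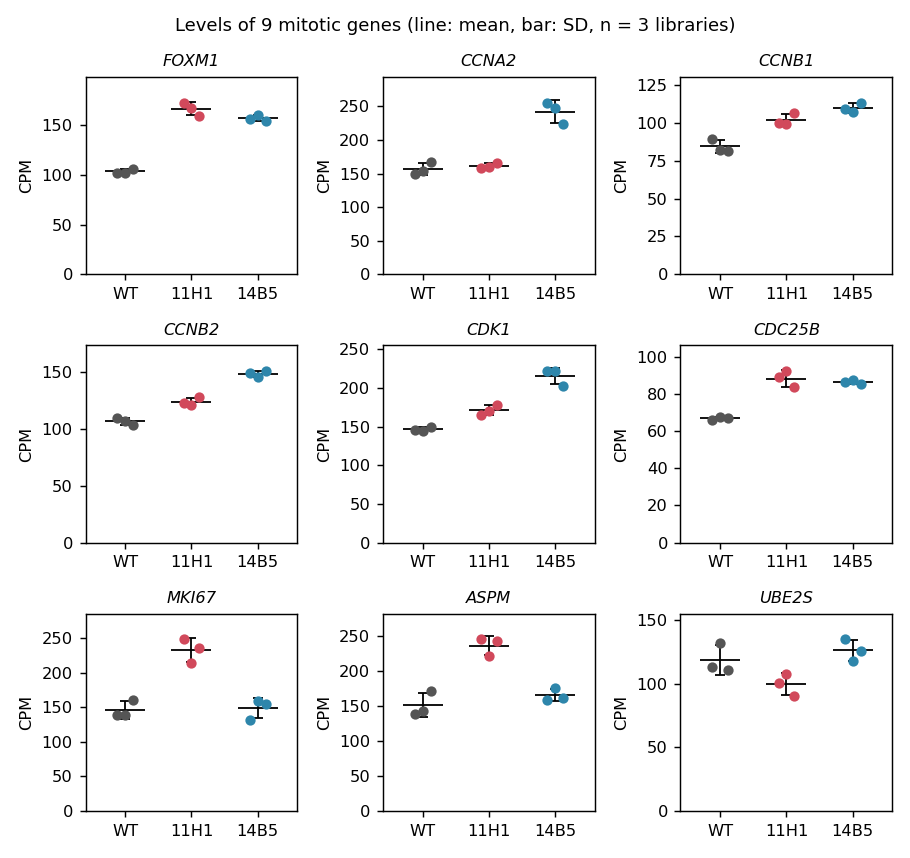
CPM on TMM-scaled library sizes (y axis, from 0) of 9 genes in the 3 WT, 3 11H1 and 3 14B5 libraries (points), with the mean (line) and SD (bar). *FOXM1* sits at 102 to 106 in WT and 154 to 172 in the KO clones, *CCNA2* is high in 14B5 alone, and *MKI67* and *ASPM* are high in 11H1 alone.

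The 3 genes grouped here under mitotic kinases, *AURKA*, *NEK2* and the AURKA activator *TPX2*, were called higher in both clones. The shares of all genes called higher were 31.8% in 11H1 and 24.9% in 14B5. Not every mitotic kinase gene rose. In the list of other mitotic genes, described further on, *BUB1* was called lower in both clones (−0.91 in 11H1 and −0.60 in 14B5). *AURKB* was called in neither (−0.06 and 0.15), while others such as *PLK1* (0.24 and 0.27) and *TTK* (0.25 and 0.44) were called higher in both. *AURKA*, the Aurora kinase of centrosomes and spindle poles (chr20:56369389-56392337), was at 103, 101 and 105 CPM in WT, 114, 113 and 114 in 11H1, and 131, 123 and 121 in 14B5. The 3 groups were apart, but the change was small, at a log2FC of 0.15 ± 0.0421 (adjusted *P* = 0.00935) and 0.27 ± 0.0478 (adjusted *P* = 0.001). *TPX2*, which activates AURKA on the spindle (chr20:31739271-31801805), was at 228, 221 and 244 CPM in WT, 274, 255 and 272 in 11H1, and 283, 282 and 278 in 14B5. It was above WT in every KO library, with a log2FC of 0.21 ± 0.052 (adjusted *P* = 0.00321) and 0.27 ± 0.0491 (adjusted *P* = 0.00116). *NEK2*, the kinase that splits centrosomes (chr1:211658657-211675630), was at 34, 38.1 and 37.5 CPM in WT, 40.5, 39.2 and 42.6 in 11H1, and 55.9, 59 and 56.3 in 14B5. The rise was 0.16 ± 0.0579 in 11H1 (adjusted *P* = 0.0256) and 0.63 ± 0.0556 in 14B5 (adjusted *P* = 7.93e-06). The direct comparison of 11H1 with 14B5 gave −0.48 ± 0.0485 (adjusted *P* = 4.72e-06). The small calls in 11H1 did not hold in every setting. *NEK2* did not pass without WT 1 (0.11, adjusted *P* = 0.141), without 11H1 1 (0.16, adjusted *P* = 0.069) or without 11H1 3 (0.13, adjusted *P* = 0.104), and *AURKA* did not without WT 2 (0.12, adjusted *P* = 0.0604). With no filter on low counts *NEK2* (0.14, adjusted *P* = 0.0538) and *AURKA* (0.12, adjusted *P* = 0.0615) did not pass either.

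The APC/C and separase genes were the least uniform, with 2 of 4 called higher in each clone. Of all genes 31.8% in 11H1 and 24.9% in 14B5 were called higher, and 4 genes are too few to compare with those shares. *UBE2C*, the E2 enzyme that starts ubiquitin chains on cyclin B and securin (chr20:45812576-45816957), was at 81.3, 87.9 and 83.2 CPM in WT, 122, 125 and 125 in 11H1, and 148, 141 and 137 in 14B5. The groups did not overlap, and the log2FC was 0.56 ± 0.046 in 11H1 (adjusted *P* = 6.78e-07) and 0.74 ± 0.0511 in 14B5 (adjusted *P* = 1.35e-06), the highest of the 46 genes in 14B5. *UBE2S*, the E2 enzyme that extends those chains (chr19:55399745-55407777), was at 113, 132 and 111 CPM in WT, 101, 108 and 90.8 in 11H1, and 135, 118 and 126 in 14B5. Its 11H1 libraries were all below WT, at a log2FC of −0.24 ± 0.0764 (adjusted *P* = 0.0152), and 14B5 overlapped WT (0.07 ± 0.0756, adjusted *P* = 0.453). This fall did not pass without WT 2 (−0.16, adjusted *P* = 0.0682) or without 11H1 3 (−0.18, adjusted *P* = 0.0826), and *UBE2S* shares sequence with the pseudogenes *UBE2SP1* (9.3 to 12.8 CPM) and *UBE2SP2* (1.1 to 2.26 CPM), so reads may have been divided between them.

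*ESPL1* encodes separase, the protease that cuts cohesin (chr12:53268299-53293643). It was at 57.5, 56.3 and 59.4 CPM in WT, 84.1, 81.9 and 82.4 in 11H1, and 52.2, 60.5 and 61.1 in 14B5. The 11H1 libraries stood above all others (log2FC 0.53 ± 0.0449, adjusted *P* = 9.28e-07), and 14B5 overlapped WT (−0.01 ± 0.0635, adjusted *P* = 0.911). *CDC20*, the activator of the APC/C at anaphase, changed by 0.12 in 11H1 (adjusted *P* = 0.055) and by 0.35 in 14B5 (adjusted *P* = 0.000125). In 11H1 it passed under 5 alternatives, among them DESeq2 (0.12, adjusted *P* = 0.0479) and the fit without 11H1 3 (0.16, adjusted *P* = 0.0316).

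Kinesins are the motors that build and move the spindle. Of the 10 kinesin genes among the 46, 10 were called higher in 11H1 and 9 in 14B5, beside 31.8% and 24.9% of all genes. This does not hold for all kinesins. In the list of other mitotic genes, described further on, *KIF20A* was called lower in both clones (−0.34 in each). *CENPE* was called higher in 11H1 (0.16), with libraries that overlapped WT, and was not called in 14B5 (0.02). *KIF18B*, a motor that trims astral microtubules (chr17:44924709-44947711), was at 43.9, 43.8 and 40.3 CPM in WT, 78.4, 79.3 and 73.6 in 11H1, and 53.1, 54.6 and 58.5 in 14B5. It had the highest log2FC of the 46 genes in 11H1, 0.86 ± 0.0539 (adjusted *P* = 7.43e-08), and rose by 0.36 ± 0.057 in 14B5 (adjusted *P* = 0.000453), with no overlap among the 3 groups. *KIF20B*, a motor of the midzone and cytokinesis (chr10:89701610-89774939), was at 68.9, 68.4 and 81.2 CPM in WT, 109, 101 and 114 in 11H1, and 119, 124 and 114 in 14B5. All KO libraries were above WT, at 0.57 ± 0.0694 (adjusted *P* = 1.78e-05) and 0.69 ± 0.0685 (adjusted *P* = 1.82e-05). *KIFC1*, the minus-end motor that clusters centrosomes (chr6:33391536-33409924), was at 77.6, 79.4 and 81.7 CPM in WT, 93.5, 87.1 and 82.9 in 11H1, and 100, 98.7 and 93.4 in 14B5. The lowest 11H1 library was close to the highest WT library, and the log2FC was 0.15 ± 0.0537 in 11H1 (adjusted *P* = 0.0267) and 0.28 ± 0.0475 in 14B5 (adjusted *P* = 0.000759).

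*KIF14*, a motor of the midbody (chr1:200551497-200620734), was at 62.5, 63.1 and 74.1 CPM in WT, 86.3, 76.7 and 83.8 in 11H1, and 71, 78.8 and 70.6 in 14B5. It rose in 11H1 (0.31 ± 0.0696, adjusted *P* = 0.0018) and overlapped WT in 14B5 (0.13 ± 0.0725, adjusted *P* = 0.166). The other kinesins were higher in both clones: the bipolar motor *KIF11* (0.22 in 11H1 and 0.39 in 14B5), *KIF15*, which can stand in for it (0.51 and 0.57), the length-controlling *KIF18A* (0.46 and 0.56), the chromosome arm motors *KIF22* (0.44 and 0.29) and *KIF4A* (0.49 and 0.30), and the microtubule depolymerase *KIF2C* (0.37 and 0.33). Reads of *KIF4A* may be divided with its near copy *KIF4B*, which was at 0.65 to 1.25 CPM. The 11H1 call of *KIFC1* did not pass without WT 1 (0.13, adjusted *P* = 0.0921), WT 2 (0.14, 0.0808), 11H1 1 (0.10, 0.148) or 11H1 2 (0.16, 0.0512), nor with no filter on low counts (0.13, 0.0536) or with a trend in transcript length and GC content removed (0.10, 0.0718). In 14B5 *KIF14* did pass without WT 3 (0.23, adjusted *P* = 0.012) and with that trend removed (0.12, adjusted *P* = 0.0392).

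**Figure D4:**
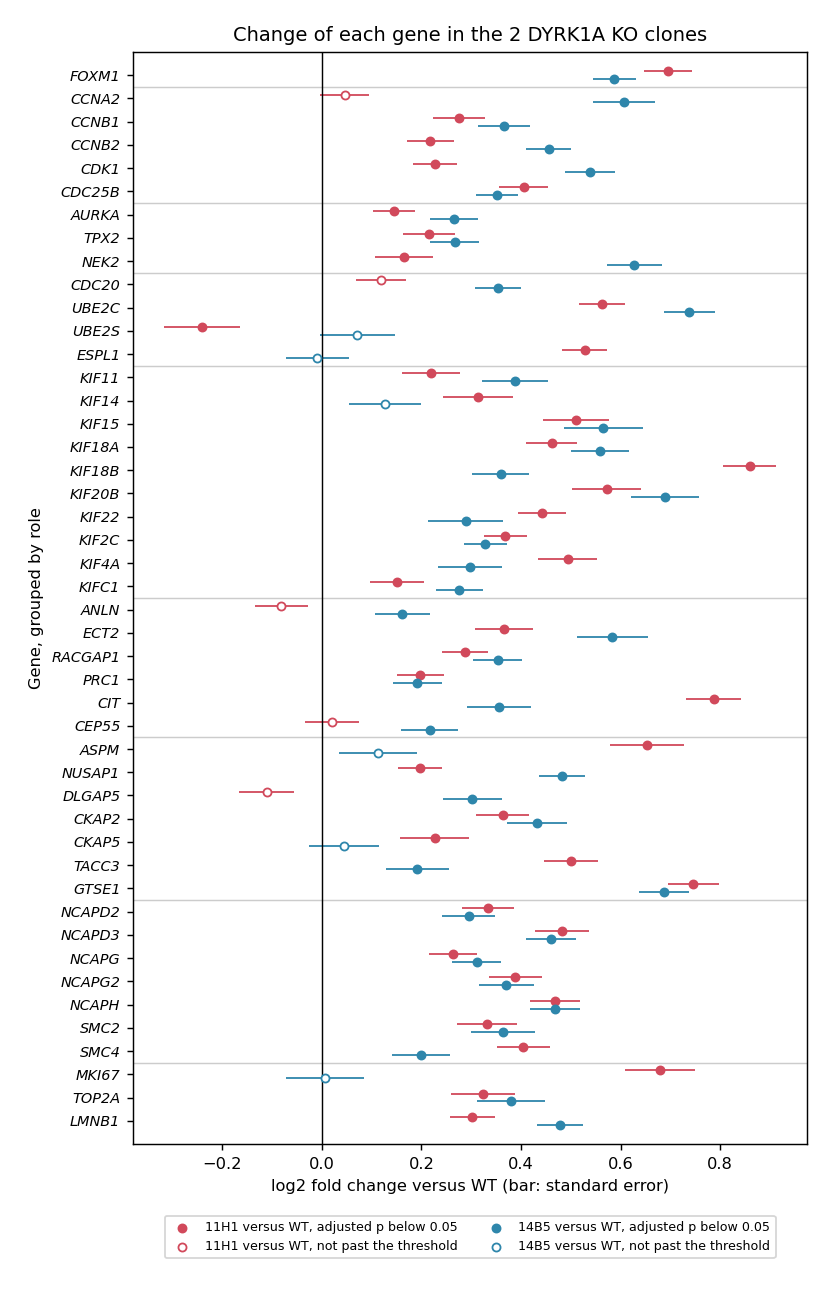
log2FC versus WT (x axis, bar = SE) of the 46 genes (y axis, grouped by role) in 11H1 (red) and 14B5 (blue), with filled points for an adjusted *P* below 0.05. Points lie between −0.24 and 0.86 and 40 are filled to the right of 0 in each clone.

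Cytokinesis genes were called higher in 4 of 6 cases in 11H1 and 6 of 6 in 14B5, beside 31.8% and 24.9% of all genes. *CIT* encodes citron kinase, which stabilises the midbody (chr12:119685790-119877291). Its level was 62.4, 64.5 and 69.7 CPM in WT, 117, 108 and 112 in 11H1, and 77.4, 90.1 and 86.6 in 14B5. The 3 groups were apart, with a log2FC of 0.79 ± 0.0547 in 11H1 (adjusted *P* = 1.72e-07) and 0.36 ± 0.0647 in 14B5 (adjusted *P* = 0.00109). *ECT2*, the exchange factor that activates RhoA at the cleavage site (chr3:172750682-172821474), was at 37, 37.3 and 41.9 CPM in WT, 50.1, 47.5 and 51.2 in 11H1, and 63, 59.5 and 53.6 in 14B5. It rose in both, by 0.37 ± 0.0584 (adjusted *P* = 0.000165) and 0.58 ± 0.0713 (adjusted *P* = 7.69e-05). *ANLN*, the scaffold anillin of the contractile ring (chr7:36389806-36453791), was at 80.9, 78.7 and 89.5 CPM in WT, 79, 77 and 78.3 in 11H1, and 95.2, 95.1 and 91.4 in 14B5. In 11H1 it overlapped WT (−0.08 ± 0.0534, adjusted *P* = 0.2), and in 14B5 it was slightly higher (0.16 ± 0.0551, adjusted *P* = 0.031).

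The remaining cytokinesis genes were *RACGAP1*, a subunit of centralspindlin (0.29 in 11H1 and 0.35 in 14B5), *PRC1*, which bundles midzone microtubules (0.20 and 0.19), and *CEP55*, which recruits the abscission machinery. *CEP55* did not pass in 11H1 (0.02, adjusted *P* = 0.764) and was higher in 14B5 (0.22, adjusted *P* = 0.00878). The 14B5 call of *ANLN* did not pass without WT 1 (0.15, adjusted *P* = 0.0911), WT 2 (0.13, 0.132), 14B5 1 (0.17, 0.0663) or 14B5 2 (0.17, 0.0734).

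Of the 7 genes for spindle microtubule proteins 6 were called higher in 11H1 and 5 in 14B5, beside 31.8% and 24.9% of all genes. *GTSE1*, which regulates microtubule stability and p53 in G2 (chr22:46296741-46330810), was at 47.6, 49.5 and 51.7 CPM in WT, 86, 82.9 and 79.3 in 11H1, and 79.3, 83.7 and 79 in 14B5. The clones were level with each other and far above WT, at 0.75 ± 0.0514 (adjusted *P* = 1.6e-07) and 0.69 ± 0.0498 (adjusted *P* = 1.86e-06). *DLGAP5*, also named HURP, which stabilises kinetochore fibres (chr14:55148112-55191678), was at 94.5, 87.7 and 98.4 CPM in WT, 88, 81.6 and 89 in 11H1, and 123, 117 and 110 in 14B5. It overlapped WT in 11H1 (−0.11 ± 0.0554, adjusted *P* = 0.0987) and was higher in 14B5 (0.30 ± 0.0594, adjusted *P* = 0.00177). *CKAP5*, a microtubule polymerase (chr11:46743048-46846308), was at 344, 340 and 408 CPM in WT, 437, 399 and 437 in 11H1, and 378, 393 and 368 in 14B5. One WT library reached into the 11H1 range, and the log2FC was 0.23 ± 0.0696 in 11H1 (adjusted *P* = 0.0129) and 0.04 ± 0.0698 in 14B5 (adjusted *P* = 0.617).

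*ASPM*, the spindle pole protein whose loss causes microcephaly, was higher in 11H1 (0.65, adjusted *P* = 1.06e-05) and did not pass in 14B5 (0.11, adjusted *P* = 0.247). In 14B5 it passed without WT 3, the library with the highest WT level (0.23, adjusted *P* = 0.00825), and with a trend in transcript length and GC content removed (0.14, adjusted *P* = 0.0155). *NUSAP1*, which bundles microtubules near chromosomes, rose by 0.20 and 0.48, the spindle protein gene *CKAP2* by 0.36 and 0.43, and *TACC3*, a partner of CKAP5 on kinetochore fibres, by 0.50 and 0.19. The 14B5 call of *TACC3* did not pass without WT 2 (0.20, adjusted *P* = 0.0706), 14B5 2 (0.19, 0.0602) or 14B5 3 (0.15, 0.0871). For *CKAP5* the 11H1 call did not pass without WT 2 (0.17, adjusted *P* = 0.0763), 11H1 1 (0.20, 0.0595) or 11H1 3 (0.21, 0.0556), and the 14B5 difference did pass without WT 3 (0.15, adjusted *P* = 0.032).

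All 7 condensin genes on the list were called higher in both clones. The list does not hold every condensin subunit gene, so this is not a result for the whole complex. Condensin I and II share the SMC2 and SMC4 ATPases and differ in their other subunits. *SMC4* (chr3:160399274-160434962) was at 313, 303 and 342 CPM in WT, 426, 406 and 431 in 11H1, and 363, 391 and 358 in 14B5. The 3 groups were apart, at 0.40 ± 0.0536 in 11H1 (adjusted *P* = 3.66e-05) and 0.20 ± 0.058 in 14B5 (adjusted *P* = 0.0152), a call that did not pass without WT 2 (0.16, adjusted *P* = 0.0727) or 14B5 2 (0.18, 0.0552). *SMC2* rose by 0.33 and 0.36. The condensin II subunit *NCAPD3* (chr11:134150119-134225454) was at 144, 142 and 159 CPM in WT, 212, 198 and 209 in 11H1, and 207, 206 and 205 in 14B5. Both clones stood at one level above WT, at 0.48 ± 0.0538 (adjusted *P* = 8.78e-06) and 0.46 ± 0.051 (adjusted *P* = 3.86e-05). Its partner *NCAPG2* rose by 0.39 and 0.37.

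In condensin I the kleisin *NCAPH* (chr2:96335787-96373845) was at 92.5, 98.4 and 104 CPM in WT, 137, 132 and 137 in 11H1, and 138, 138 and 136 in 14B5. The log2FC was 0.47 ± 0.0504 in each clone (adjusted *P* = 6.68e-06 in 11H1 and 3.17e-05 in 14B5). *NCAPG* (chr4:17810902-17844862) was at 74.6, 72.2 and 78.7 CPM in WT, 90.5, 87.1 and 91.8 in 11H1, and 95.7, 96.2 and 91 in 14B5, with the clones overlapping each other and above WT. It rose by 0.26 ± 0.0485 (adjusted *P* = 0.000471) and 0.31 ± 0.0494 (adjusted *P* = 0.000456), and *NCAPD2* by 0.33 and 0.29.

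*MKI67* encodes Ki-67, which coats mitotic chromosomes and is used as a proliferation marker (chr10:128096659-128126385). It was at 138, 139 and 161 CPM in WT, 248, 214 and 236 in 11H1, and 132, 159 and 154 in 14B5. Every 11H1 library was above the other 6, and 14B5 overlapped WT. The log2FC was 0.68 ± 0.0709 in 11H1 (adjusted *P* = 5.13e-06), 0.01 ± 0.079 in 14B5 (adjusted *P* = 0.952) and 0.66 ± 0.071 in 11H1 versus 14B5 (adjusted *P* = 8.07e-06). *LMNB1*, the nuclear lamina protein lamin B1 (chr5:126776623-126837020), was at 146, 143 and 152 CPM in WT, 182, 182 and 177 in 11H1, and 212, 201 and 208 in 14B5. It was ordered WT, 11H1 and 14B5 without overlap, at 0.30 ± 0.0447 (adjusted *P* = 8.79e-05) and 0.48 ± 0.0458 (adjusted *P* = 1.39e-05). *TOP2A*, the topoisomerase that untangles sister chromatids, rose by 0.32 and 0.38.

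The clones were then compared with each other. In 11H1 versus 14B5 10 of the 46 genes (21.7%) were called higher and 17 (37%) lower, shares beside 31.6% and 32.1% of all 16352 genes tested. The median log2FC of the 46 genes was −0.07, with a range from −0.58 (*CCNA2*) to 0.66 (*MKI67*). Genes higher in 11H1 were *MKI67*, *ASPM*, *ESPL1*, *KIF18B*, *CIT*, *TACC3*, *SMC4*, *KIF4A*, *KIF14* and *CKAP5*. Genes higher in 14B5 included *CCNA2*, *NEK2*, *DLGAP5*, *CDK1*, *UBE2S*, *NUSAP1*, *ANLN*, *CCNB2* and *CDC20*. Of the group of cyclin and CDK genes with *CDC25B*, *CCNB1* (−0.11, adjusted *P* = 0.0538) and *CDC25B* (0.04, adjusted *P* = 0.497) did not pass. For *CCNB1* all 11H1 libraries were below all 14B5 libraries, and it passed with no filter on low counts (−0.13, adjusted *P* = 0.0252), without 11H1 3 (−0.14, 0.0333) and without 14B5 2 (−0.13, 0.0469).

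The direction of the clone difference moved with transcript length. Over the 46 genes the Spearman correlation of log2FC in 11H1 versus 14B5 with the length of the longest GENCODE transcript was 0.61, and over 10997 genes of at least 5 CPM it was 0.32, where all points come from the same 6 libraries. The 10 shortest transcripts (914 to 2548 bases) had a median log2FC of −0.25, with 8 called lower and 0 higher by edgeR. The 10 longest (5548 to 12678 bases) had a median of 0.17, with 6 called higher and 1 lower. Of all genes tested in this comparison 31.6% were called higher and 32.1% lower. The same correlation was 0.43 in 11H1 versus WT (0.22 over 11000 genes) and −0.32 in 14B5 versus WT (−0.05). The level of genes of 1500 bases against the mean of all libraries was −0.16 to −0.09 (log2) in the 11H1 libraries, 0.06 to 0.14 in 14B5 and −0.04 to 0.06 in WT, and that of genes of 7500 bases was 0.02 to 0.08, −0.06 to 0.02 and −0.10 to 0.03. With a trend in length and GC content removed from each library, 9 of the 46 genes were called higher and 15 lower between the clones, and *CDK1* (−0.07, adjusted *P* = 0.139), *UBE2C* (0.01, 0.933), *KIF20B* (−0.01, 0.866), *AURKA* (−0.07, 0.117), *CEP55* (−0.11, 0.0599) and *CKAP5* (0.07, 0.0944) no longer passed. Versus WT, 40 of the 46 genes in 11H1 and 42 in 14B5 were then called higher, with medians of 0.33 and 0.33. In the same fits 5797 of all 16675 genes in 11H1 and 4699 of 16537 in 14B5 were called higher. The medians over all genes were 0.02 and −0.00. Between the clones 5160 of all 16352 genes were then called higher and 5192 lower. Some calls between the clones also rested on single libraries. *KIF14* (0.13 to 0.15 without 11H1 1, 11H1 3, 14B5 1 or 14B5 3), *KIF20B* (−0.14 to −0.09 without 11H1 1, 11H1 2, 14B5 1 or 14B5 2) and *KIFC1* (−0.14 to −0.11 without 11H1 2, 11H1 3, 14B5 1 or 14B5 2) did not pass without the named library, nor did *CKAP5* without 11H1 3 (0.14, adjusted *P* = 0.056) or *AURKA* without 14B5 1 (−0.11, adjusted *P* = 0.0535).

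**Figure D5:**
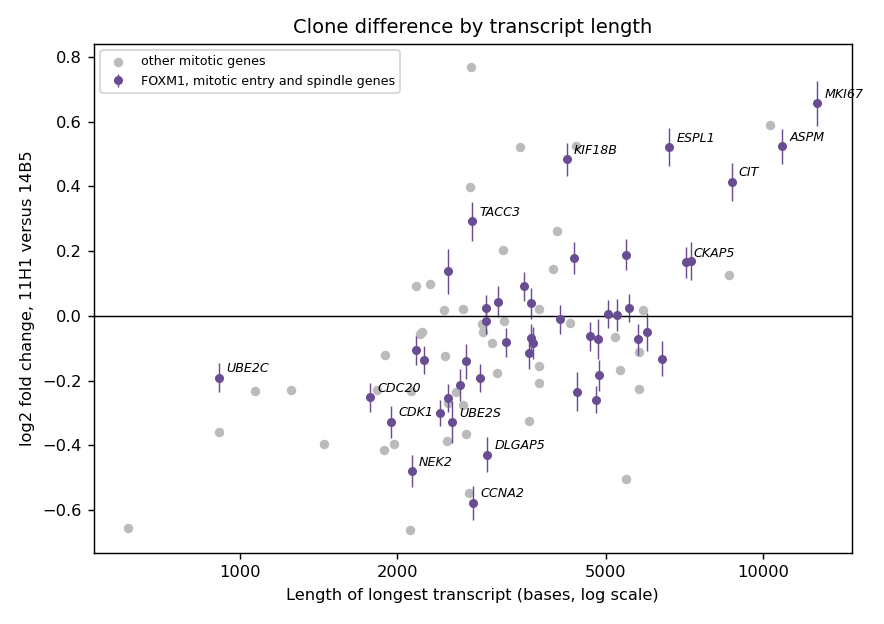
log2FC of 11H1 versus 14B5 (y axis) against the length of the longest transcript (x axis, bases, log scale) for the 46 genes (purple, bar = SE) and other mitotic genes (grey). Short transcripts such as *UBE2C* and *CDK1* lie below 0, and *MKI67* and *ASPM*, the longest, lie at 0.66 and 0.52.

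With both clones pooled (KO, n = 6 libraries, versus WT), 34 of the 46 genes (73.9%) were called higher, where 14.3% of 17080 genes were higher and 17.7% lower. None was called lower by edgeR, 0 were lower at an unadjusted *P* below 0.05 and 0 by DESeq2. The median log2FC was 0.36, against 0.02 over all genes. *GTSE1* (0.72, adjusted *P* = 9.79e-06), *UBE2C* (0.66, adjusted *P* = 0.00014) and *FOXM1* (0.65, adjusted *P* = 2.09e-05) headed the order. Genes in which the clones differ carry that spread here, as for *CCNA2* (0.36, adjusted *P* = 0.142), *MKI67* (0.38, adjusted *P* = 0.171) and *NEK2* (0.42, adjusted *P* = 0.053). The count of the 46 genes called higher was 26 without WT 1, 25 without WT 2 and 29 without WT 3, and 33 to 36 without any 1 KO library. Over all genes the count called higher fell as well. It went from 2449 of 17080 to 1393 of 17241 without WT 1 and 1481 of 17400 without WT 2.

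Read per length of transcript in WT, the levels spanned from 127 CPM per kb for *CDC20* through 92.0 for *UBE2C*, 83.7 for *TOP2A* and 75.5 for *CDK1* down to 8.71 for *ESPL1*, 7.52 for *CIT* and 6.28 for *NCAPG2*. *FOXM1* was at 29.5 CPM per kb.

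Other mitotic genes, a list of 50 that holds the checkpoint, centromere and remaining mitotic kinase genes, were read in the same way, and 49 were tested. In 11H1 versus WT 32 were called higher (64% of the 50) and 7 lower (14%), beside 31.8% and 32.8% of all genes tested, with a median log2FC of 0.21. In 14B5 33 were called higher (66%) and 4 lower (8%), beside 24.9% and 28.7%, with a median of 0.25. The median over all genes was −0.01 in each comparison. *WEE1*, the kinase that holds CDK1 inactive (1.10), *TROAP* (1.09) and *CDCA3* (0.95) had the highest log2FC in 11H1. In 14B5 these were *PBK* (0.85), the CDK subunit *CKS2* (0.71) and *MELK* (0.70). The 4 genes called lower in both clones were *GAS2L3*, *PTTG1*, *BUB1* and *KIF20A*. *PTTG1*, which encodes securin, the inhibitor of separase (chr5:160421822-160428744), was at 87.8, 82.4 and 82.1 CPM in WT, 37.4, 38.5 and 42.1 in 11H1, and 46.2, 46.7 and 46.1 in 14B5. It fell by 1.09 ± 0.0554 on the log2 scale in 11H1 (adjusted *P* = 1.26e-08) and by 0.88 ± 0.0474 in 14B5 (adjusted *P* = 2.22e-07), with no overlap.

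*BUB1*, the kinase of the spindle checkpoint (chr2:110637698-110678114), was at 163, 162 and 189 CPM in WT, 91.4, 87.2 and 92.8 in 11H1, and 118, 117 and 107 in 14B5. Every KO library was below WT, by a log2FC of −0.91 ± 0.0618 (adjusted *P* = 1.39e-07) and −0.60 ± 0.0673 (adjusted *P* = 4.02e-05). *GAS2L3*, which links actin to microtubules at the midbody (chr12:100573683-100628286), was at 4.35, 4.76 and 4.45 CPM in WT, 0.128, 0.274 and 0.243 in 11H1, and 0.226, 0.418 and 0.244 in 14B5. It was near 0 in each clone, at a log2FC of −4.46 ± 0.214 (adjusted *P* = 8.3e-09) and −3.91 ± 0.197 (adjusted *P* = 1.4e-07). The motor gene *KIF20A* (chr5:138178719-138187715) changed by −0.34 in each clone (adjusted *P* = 7.79e-05 and 0.00033). In 11H1 alone *CDC25C* (−0.23), *PSRC1* (−0.17) and *TRIP13* (−0.25) were also called lower, and each was lower in 11H1 than in 14B5 by the direct test (adjusted *P* = 0.0141, 0.00338 and 0.000129).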

How the data were processed

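RNA-seq of 9 SET2 libraries (3 groups) was analysed. The authors deposited 1 table of RSEM expected counts per gene, without scaling for depth or length; RSEM divides ambiguous reads among the genes they fit. Per the submitters' processing notes reads were aligned with STAR 2.7.9a to GRCh38, with Picard and RSEM. The RSEM version and annotation release were not given in the sources used here. The paper describes a stranded mRNA kit and the labels a SMARTER kit, so the strand setting of the counting is open and antisense reads may be included. The table held 92 spike-in entries, all at 0, which stayed out of every step. The number of columns left out was 0. The paper's KO analysis used fewer libraries than the 6 used here.

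Expected counts were rounded and tested in R 4.3.3 with edgeR 4.0.16 (TMM, filterByExpr, quasi-likelihood F test, Benjamini-Hochberg over all genes tested, threshold 0.05), with only the groups compared in each fit. The members and lists were chosen with earlier results of these data known. Full values were given for *FOXM1*, the cyclin and CDK genes with *CDC25B* and, per role, the genes with the highest and lowest log2FC in each clone. Of the other mitotic genes, the top 3 and those called lower in each clone were named. Values per library of *PTTG1*, *BUB1* and *GAS2L3* were added after their values were seen. Gene positions and lengths came from GENCODE release 29. Alternatives were DESeq2 1.42.0 (size factors, Wald test), all genes kept, a minimum of 10 counts per library, no mitochondrially encoded genes, 1 fit of all 9 libraries, the replicate number as a block, and each library left out. Removal of a trend with length and GC content (lowess, span 0.3, genes of at least 5 CPM) was chosen after seeing the data. In simulated counts for 11H1 versus WT (16430 genes) 85.9% of 99 genes changed by a log2FC of 0.5 were recovered and 94% of 100 changed by 1, with 8 false calls. For KO versus WT (16739 genes) these were 82.7% of 98 and 97% of 99, with 19 false calls. The simulation changed few genes, gave all genes the same variability and put no difference between the clones. Its figures check the code and do not carry over to the real data, least of all to KO versus WT, where the clones differ. Pairs of libraries of 1 group differed by 3.84 to 34.7 times the sampling noise, so none was a copy of another.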

Additional observations from a re-analysis of the deposited data

Results flagged for a closer look

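Levels differed between the clones for 27 of the 46 genes by the direct edgeR test of 11H1 versus 14B5. Of the 46 genes 21.7% were called higher and 37% lower, beside 31.6% and 32.1% of all genes tested, so differing between the clones does not set these genes apart, and a difference between clones is not shown to be one in the effect of the KO. The log2FC of 11H1 versus 14B5 was below 0 for *CCNA2* (−0.58), *NEK2* (−0.48), *DLGAP5* (−0.43), *UBE2S* (−0.33), *CDK1* (−0.33), *NUSAP1* (−0.30), *ANLN* (−0.26), *CCNB2* (−0.25), *CDC20* (−0.25), *ECT2* (−0.23), *CEP55* (−0.21), *LMNB1* (−0.19), *UBE2C* (−0.19), *KIF11* (−0.18), *KIFC1* (−0.14), *AURKA* (−0.14) and *KIF20B* (−0.13). It was above 0 for *CKAP5* (0.17), *KIF14* (0.17), *KIF4A* (0.18), *SMC4* (0.19), *TACC3* (0.29), *CIT* (0.41), *KIF18B* (0.48), *ESPL1* (0.52), *ASPM* (0.52) and *MKI67* (0.66). Libraries of the clones overlapped for *KIFC1*, *KIF20B* and *KIF14*. The 27 genes were selected by the test on these same libraries, so a lack of overlap in the others adds no support. The share of mitochondrially encoded counts (7.23 to 7.39% in 11H1 and 3.3 to 3.92% in 14B5) and the trend of the libraries with transcript length differed between the clones as well. The alternatives only took the mitochondrially encoded genes out of the counts or the trend out of the fit. What lies behind the mitochondrial share and the trend, and its part in these differences, was not tested.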

How the results depend on the processing

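Of 644 log2FC values of the 46 genes under alternatives, 618 in 11H1 versus WT, 627 in 14B5 versus WT and 606 in 11H1 versus 14B5 kept their direction where called and their side of the threshold, as did 722 of 782 in KO versus WT. Between the clones, *NCAPD2* (−0.13, adjusted *P* = 0.00423) and *CDC25B* (−0.09, adjusted *P* = 0.0435) passed with a changed direction and *UBE2C* (0.01, adjusted *P* = 0.933) lost its call when the trend with length and GC content was removed. Genes called lower in 11H1 versus WT numbered 2 with no filter on low counts (*DLGAP5* added, while those called higher fell from 40 to 37), 2 with the trend removed (*ANLN* added) and 0 to 1 with each library left out (0 without 11H1 3). A single fit of all 9 libraries called 5030 of all genes higher and 5215 lower in KO versus WT, against 2449 and 3022. With each library left out, all genes called higher in KO versus WT ran from 1393 (without WT 1, 37.3% of all calls against 44.8%) to 2480, with 1481 without WT 2, and other mitotic genes called higher from 15 (without WT 2) to 26. Of the 46 genes, between 37 and 40 were then called higher in 11H1 versus WT, between 37 and 43 in 14B5 versus WT and between 25 and 36 in KO versus WT. In 11H1 versus 14B5 8 to 10 were higher and 15 to 19 lower. The share of windows with a CHR fell to 56.9% in the upstream part.

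The replicate numbers did not pair the libraries (correlation of same-numbered deviations −0.234 to 0.099, of other pairs −0.202 to 0.211). With the replicate block 2 genes were called lower in 11H1 versus WT (*DLGAP5* added), 37 of the 46 were called higher in 14B5 versus WT (without *ANLN*, adjusted *P* = 0.0856, *TACC3*, 0.0768, and *SMC4*, 0.054), 27 were called higher in KO versus WT, and 1584 of all genes were called higher there. Calls of a clone versus WT that changed when 1 library was left out had a log2FC between −0.24 and 0.23 with all libraries.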
